A study of Mus musculus with 5 samples.

Results

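Messenger RNA levels of 10 genes of the Wnt/β-catenin pathway were followed in neural stem and precursor cells from the subventricular zone of adult mice, a stem cell niche lining the lateral ventricles. They were the effector gene Ctnnb1, the TCF/LEF transcription factor genes Tcf7l1, Tcf7l2 and Lef1, the feedback genes Axin2 and Nkd1, the receptor genes Fzd1 and Lgr5, and the ligand genes Wnt7a and Wnt7b. They were chosen by symbol and not by value, and all 10 were found among the 46078 genes listed for every library. A total of 9 had a mean level of at least 1 TPM (a transcript level scaled for length and to the same total in each library) and entered the test, and Lef1 did not.

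The 5 RNA-seq libraries came from cells of C57BL/6 mice with the genotype No mutation, labelled female and 5 to 8 weeks old, although the methods of the study give an older age. All cells received a PBS sham exposure on plates coated with poly-D-lysine (PDL), and RNA was isolated after 1 h (n = 2) or 8 h (n = 3). One replicate was 1 animal, and the cells were primary cells that had not yet been differentiated into astrocytes. Cells exposed to hydrogen peroxide were not analysed here.

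In the canonical Wnt pathway, a secreted Wnt ligand binds a Frizzled receptor with an LRP co-receptor, which stops the destruction complex built on Axin and APC from marking β-catenin for degradation. The stabilised protein enters the nucleus and acts with TCF/LEF factors on target genes, and several targets, such as Axin2 and Nkd1, encode inhibitors that feed back on the signal. The pathway is known for its role in the self-renewal and neurogenesis of adult neural stem cells. β-catenin is controlled mainly at the protein level, which RNA-seq does not measure.

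The libraries stood apart in a way that the time groups do not describe. Library identifiers in the labels form a pair of number series, whose meaning the sources used here do not state. Both 1 h libraries and 8 h replicate 14 carry series 1 identifiers, and 8 h replicates 13 and 15 carry series 2 identifiers. Xist, the RNA of the inactive X chromosome, was at 165.3 and 199.7 TPM in 8 h replicates 13 and 15 and at most 0.0611 TPM in the other 3 libraries. The Y-linked genes Ddx3y, Eif2s3y, Kdm5d and Uty were at or near 0 in 8 h replicates 13 and 15 and, against the label female, lay between 14.3 and 108.7 TPM in the other 3. The mitochondrial share of TPM was 6.23% and 6.30% in series 2 and 10.7% to 11.1% in series 1, and the summed level of 5 proliferation genes was 1132 and 1207 TPM against 604.8 to 675.0 TPM. Identifier series, this sex pattern and these levels cannot be told apart, and series 2 holds 8 h libraries alone. Of 10 neural stem and precursor markers, all 10 were above 1 TPM on average (summed level 11297 to 14495 TPM). Most of that sum was Fabp7 (7679 to 10076 TPM). Genes of the oligodendrocyte lineage, 7 in number, summed to 1613 to 2442 TPM, with Olig1 (972.1 to 1630 TPM) the highest. The 5 microglial markers summed to at most 1.47 TPM. Of 5 endothelial markers, which summed to 11.8 to 15.4 TPM, Cldn5 and Cdh5 were listed at 0 throughout, Pecam1 was at most 0.166 TPM, and Flt1 (9.71 to 13.6 TPM) and Kdr (1.07 to 1.97 TPM) were detected. In such bulk libraries, fewer cells of a type and less RNA per cell cannot be told apart.

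The 10 genes spanned a wide range of levels. Ctnnb1, which encodes β-catenin, was the most abundant with a mean of 721.5 TPM over the 5 libraries, above 98.8% of the genes tested. Wnt7b followed with 128.3 TPM (above 90.3% of genes), then Fzd1 with 32.4 TPM and Wnt7a with 30.3 TPM. Tcf7l1 (11.9 TPM), Nkd1 (11.5 TPM), Axin2 (10.6 TPM) and Tcf7l2 (9.71 TPM) lay close together, Lgr5 had 2.12 TPM, and Lef1 was near 0. The ranges over libraries of Fzd1 and Wnt7a overlapped, as did those of Tcf7l1, Nkd1, Axin2 and Tcf7l2. Within each of the 5 libraries Tcf7l1 was above Tcf7l2, but no order within these sets exceeded the spread over libraries. The steps from Ctnnb1 to Wnt7b, from Wnt7b to Fzd1 and Wnt7a, from these to the set of 4, and from the set of 4 to Lgr5 exceeded it, without overlap.

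**Figure D1:**
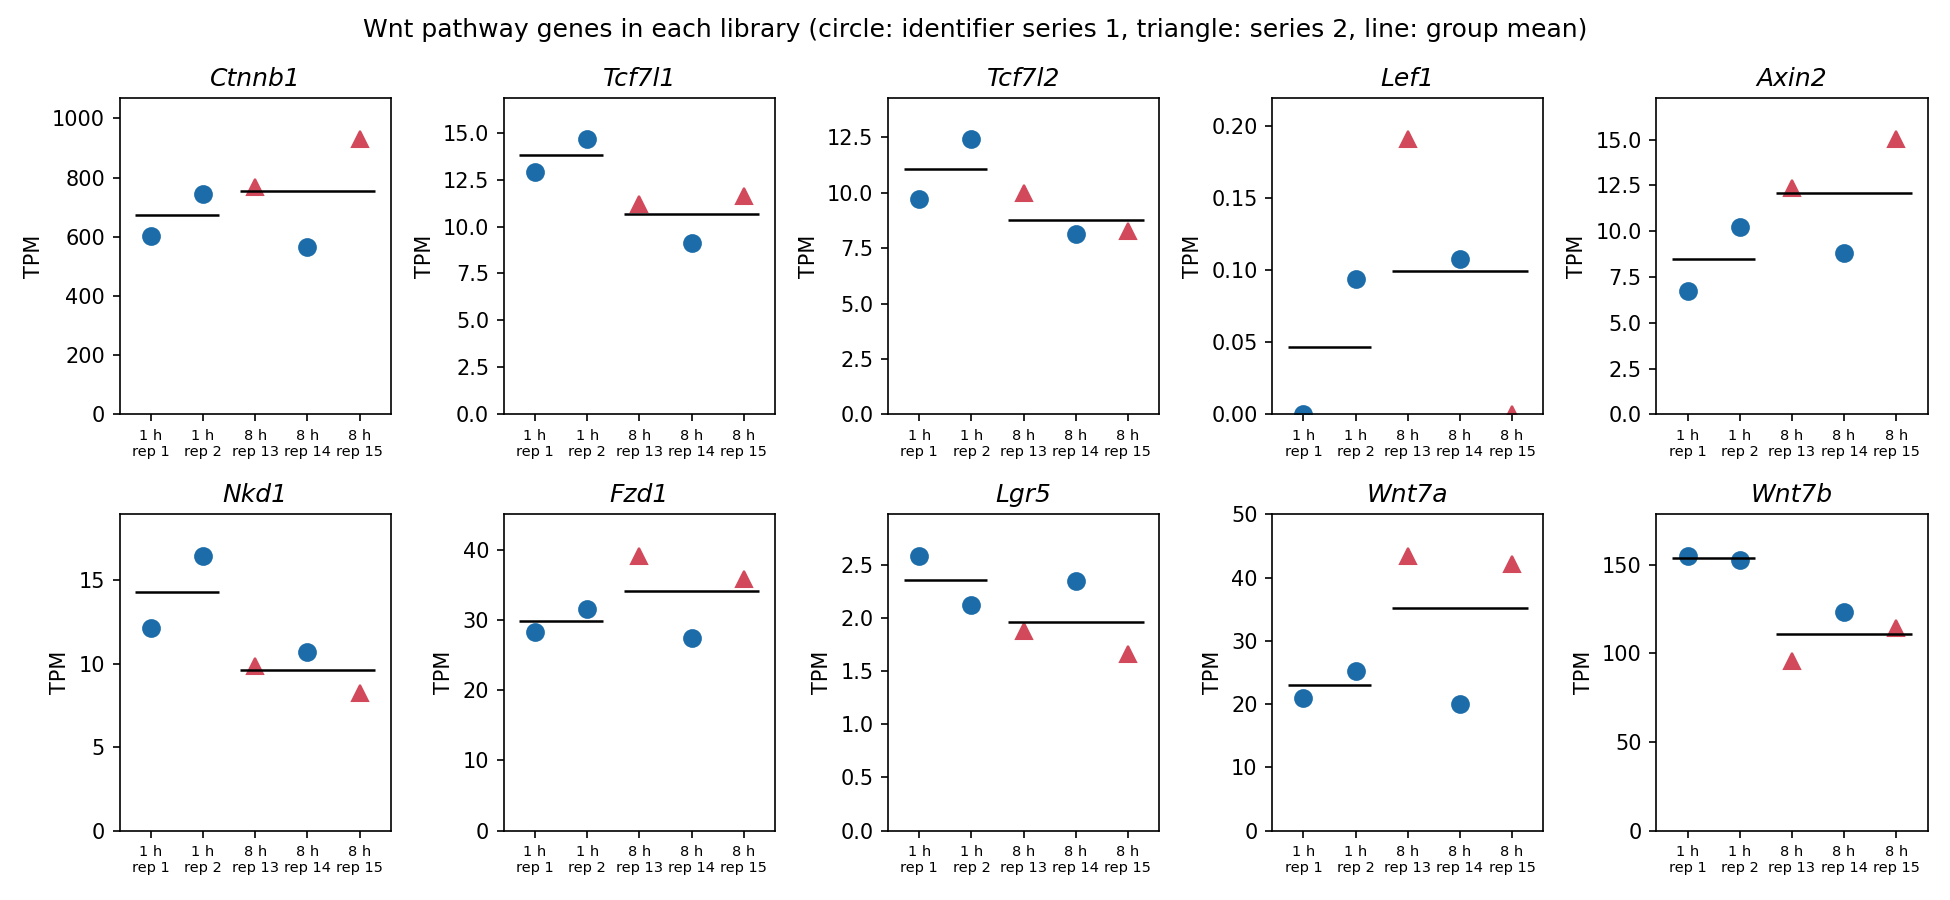
Level in TPM (vertical axis, from 0, scaled for each gene) of the 10 genes in each of the 5 libraries, with circles for identifier series 1, triangles for series 2 and lines for the means at 1 h (n = 2) and 8 h (n = 3). Wnt7b lies below both 1 h values in all 3 libraries at 8 h, while Wnt7a is at 43.5 and 42.1 TPM in 8 h replicates 13 and 15 and at 20.01 TPM in 8 h replicate 14.

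The comparison of 8 h with 1 h asked how these transcripts stood at different times after the sham exposure. With limma on log2(TPM + 1), 0 of the 9 tested members met both limits for a call, an adjusted p no higher than 0.05 and a log2 fold change beyond 1 in size, and 0.0433% of all 13870 genes were called. An unadjusted p under 0.05 was found for 2 members, Wnt7b and Nkd1, both lower at 8 h. In that direction 2.82% of all genes passed this limit, and 9.52% did in the other direction, where no member (0 of 9) passed. Wnt7b, Nkd1 and Tcf7l1 were lower in all 3 libraries at 8 h than in both at 1 h, and 0 members were higher in all. Among all genes, 9.43% did not overlap and were lower and 23.7% did not overlap and were higher. Fold changes are given as 8 h minus 1 h on the log2(TPM + 1) scale, on which changes of low genes come out too small. The median of all tested genes was 0.10 on this scale and moved by -0.11 with median-ratio scaling. Values relative to that median are therefore given as well, for Ctnnb1, Nkd1 and Wnt7b with each gene. Relative to that median, Tcf7l1 stood at -0.45, Tcf7l2 at -0.40, Lgr5 at -0.28, Fzd1 at 0.073, Axin2 at 0.36 and Wnt7a at 0.42. Values with the identifier series as a term compare 8 h replicate 14 alone with the 1 h libraries. They rest on 1 library at 8 h.

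Ctnnb1 (ENSMUSG00000006932, chromosome 9, 120929216 to 120960507, GRCm38), the pathway's transcriptional effector and also a component of cell adhesion complexes, had 601.1 and 743.9 TPM in the 1 h libraries and 767.5, 565.0 and 929.8 TPM at 8 h (replicates 13, 14 and 15). The highest and lowest values were both at 8 h, so the groups overlapped. The means were 672.5 ± 100.96 TPM (SD, n = 2) and 754.1 ± 182.7 TPM (SD, n = 3), and the log2 fold change was 0.14 ± 0.22 (SE, limma, adjusted p = 0.761), or 0.042 above the median of all genes, with a 95% confidence interval from -0.41 to 0.69. With the identifier series as a term, and so with 8 h replicate 14 as the only 8 h library compared, the value was -0.24. No direction with time is therefore given here. The low library was 8 h replicate 14, the 8 h library of series 1.

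The TCF/LEF genes encode the factors through which β-catenin reaches DNA. Tcf7l1 (ENSMUSG00000055799, chromosome 6, 72626378 to 72789254), whose product is known mainly as a repressor, had 12.9 and 14.6 TPM in the 1 h libraries and 11.2, 9.13 and 11.6 TPM at 8 h (replicates 13, 14 and 15). All 8 h values were below both 1 h values. The log2 fold change was -0.35 ± 0.16 (SE, limma, adjusted p = 0.416), which did not pass, and the interval ran from -0.73 to 0.034. It was the member furthest from 0 in the fit with the identifier series as a term, at -0.54, where it was not called either (limma, adjusted p = 0.403, against 0.190 to 0.796 over all alternatives tried for this gene).

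Tcf7l2 (ENSMUSG00000024985, chromosome 19, 55741810 to 55933654) had 9.74 and 12.4 TPM in the 1 h libraries and 9.98, 8.13 and 8.27 TPM in the same 8 h replicates. One 8 h value lay between the 1 h values, so the groups overlapped, and the difference of -0.30 ± 0.17 on the log2 scale (SE, limma, adjusted p = 0.466) did not pass. Lef1 (ENSMUSG00000027985, chromosome 3, 131110471 to 131224356), a TCF/LEF gene that is itself a common Wnt target, was listed at 0 and 0.0939 TPM in the 1 h libraries and at 0.191, 0.107 and 0 TPM at 8 h. Both groups held a library at 0, and with values this low no fold change is given. Tcf7, the remaining gene of the family, had 2.62 and 2.67 TPM in the 1 h libraries and 6.98, 2.47 and 3.99 TPM at 8 h. Tcf7l1 and Tcf7l2 were thus the higher TCF/LEF transcripts in all 5 libraries.

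Among the feedback genes, Axin2 and Nkd1 stood on opposite sides of 0. Axin2 (ENSMUSG00000000142, chromosome 11, 108920349 to 108950783), a scaffold of the destruction complex and a widely used readout of pathway activity, had 6.76 and 10.2 TPM in the 1 h libraries and 12.4, 8.84 and 15.0 TPM at 8 h (replicates 13, 14 and 15). The 8 h replicate 14 fell between the 1 h libraries, and the other 8 h libraries were above both. The means were 8.48 ± 2.44 TPM (SD, n = 2) and 12.1 ± 3.10 TPM (SD, n = 3), the log2 fold change being 0.46 ± 0.26 (SE, limma, adjusted p = 0.468) with an interval from -0.19 to 1.11. With the identifier series as a term the value was 0.077.

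Nkd1 (ENSMUSG00000031661, chromosome 8, 88521344 to 88594887), which encodes an inhibitor that binds Dishevelled, had 12.1 and 16.5 TPM in the 1 h libraries and 9.89, 10.7 and 8.27 TPM at 8 h. Every 8 h library was below both 1 h libraries. The means were 14.3 ± 3.07 TPM (SD, n = 2) and 9.62 ± 1.24 TPM (SD, n = 3), a difference of -0.52 ± 0.19 on the log2 scale (SE, limma, adjusted p = 0.380) or -0.62 relative to all genes. The interval, from -0.97 to -0.066, did not include 0, but the change did not pass adjustment over all genes. With the identifier series as a term it was -0.37, with an interval from -0.91 to 0.16, and without 1 h replicate 2 it was -0.31. The related Nkd2 was near 1 TPM in every library (0.931 to 1.41 TPM).

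TCF/LEF proteins are known to bind short DNA sites with a CTTTG core. The word CTTTGAA was searched, and likewise CTTTGAT, followed by CTTTGTA and lastly CTTTGTT, on both strands of 300-base windows around RefSeq transcription starts (GRCm38.p6, 250 bases before to 50 after the start). The words share their core and differ in the letters after it, so no stretch is counted under more than 1 of them on a strand. At least 1 of them lay in 16.88% of the 32851 windows of all genes and in 2 of the 13 windows of 8 members. Lgr5 and Wnt7b had no entry. The matches lay in the windows of internal starts of Tcf7l2 (chr19:55895071-55895370, plus strand) and Lef1 (chr3:131156044-131156343, plus strand), beginning 14 and 147 bases before the start. Both windows are shown with the match in capitals, beside the window of the feedback gene Axin2 (chr11:108920099-108920398, plus strand), which holds none of these words. A match is a description of letters and not a shown site, and its absence from a window says nothing about the factor.
Tcf7l2, internal start: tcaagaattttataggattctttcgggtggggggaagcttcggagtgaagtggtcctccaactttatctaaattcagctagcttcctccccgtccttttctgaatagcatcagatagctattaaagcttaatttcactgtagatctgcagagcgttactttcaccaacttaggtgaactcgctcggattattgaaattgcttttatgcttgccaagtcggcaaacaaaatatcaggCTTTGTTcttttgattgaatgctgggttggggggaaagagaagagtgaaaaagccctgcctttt
Lef1, internal start: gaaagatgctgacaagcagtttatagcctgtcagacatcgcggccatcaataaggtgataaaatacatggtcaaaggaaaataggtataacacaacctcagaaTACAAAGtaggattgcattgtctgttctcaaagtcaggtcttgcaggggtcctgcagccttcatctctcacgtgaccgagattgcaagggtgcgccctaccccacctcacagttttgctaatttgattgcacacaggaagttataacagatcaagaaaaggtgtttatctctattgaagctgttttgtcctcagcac
Axin2: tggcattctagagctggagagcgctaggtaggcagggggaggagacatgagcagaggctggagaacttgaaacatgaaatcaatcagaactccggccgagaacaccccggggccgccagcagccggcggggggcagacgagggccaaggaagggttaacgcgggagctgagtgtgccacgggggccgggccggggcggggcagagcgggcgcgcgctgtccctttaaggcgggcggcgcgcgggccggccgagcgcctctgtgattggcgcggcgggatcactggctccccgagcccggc

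The receptor genes were expressed at very different levels. Fzd1 (ENSMUSG00000044674, chromosome 5, 4753839 to 4758035), which encodes a Frizzled receptor, had 28.2 and 31.5 TPM in the 1 h libraries and 39.2, 27.4 and 35.9 TPM at 8 h (replicates 13, 14 and 15). The series 2 libraries were the highest and 8 h replicate 14 the lowest of the 5, so the groups overlapped. The log2 fold change was 0.18 ± 0.17 (SE, limma, adjusted p = 0.627), with an interval from -0.25 to 0.60, and it turned to -0.12 with the identifier series as a term.

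Lgr5 (ENSMUSG00000020140, chromosome 10, 115450311 to 115587780), a receptor for R-spondins that marks stem cells in several epithelia, had 2.59 and 2.12 TPM in the 1 h libraries and 1.88, 2.35 and 1.66 TPM in the same order at 8 h. Its 8 h replicate 14 lay between the 1 h values and the other 8 h libraries below both. The difference of -0.18 ± 0.19 on the log2 scale (SE, limma, adjusted p = 0.646) became 0.00074 with the identifier series as a term. The related Lgr4, at 6.29 to 8.86 TPM, was above Lgr5 in every library. The third family member, Lgr6, had 3.83 and 3.41 TPM in the 1 h libraries and 0.757, 1.85 and 0.690 TPM at 8 h, without overlap (log2 fold change -1.18 ± 0.28, SE, limma, adjusted p = 0.294, and -0.70 with the identifier series as a term).

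The ligand genes Wnt7a and Wnt7b are close paralogues whose products signal through β-catenin in the developing brain and its vessels. Wnt7b (ENSMUSG00000022382, chromosome 15, 85535439 to 85581821) had 155.2 and 152.9 TPM in the 1 h libraries and 95.7, 123.5 and 114.2 TPM at 8 h (replicates 13, 14 and 15). All 3 values at 8 h were below both at 1 h, and the 1 h libraries differed little. The means were 154.1 ± 1.67 TPM (SD, n = 2) and 111.1 ± 14.2 TPM (SD, n = 3), and the log2 fold change was -0.48 ± 0.13 (SE, limma, adjusted p = 0.312), or -0.58 relative to all genes, with an interval from -0.79 to -0.16. With the identifier series as a term it was -0.32, with an interval from -0.65 to 0.012. It did not pass adjustment over all genes.

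Wnt7a (ENSMUSG00000030093, chromosome 6, 91363981 to 91411363) had 20.9 and 25.2 TPM in the 1 h libraries and 43.5, 20.01 and 42.1 TPM at 8 h (replicates 13, 14 and 15). The 8 h replicate 14 was the lowest of all 5 libraries and the other 8 h libraries the highest, so the groups overlapped. The means were 23.03 ± 3.01 TPM (SD, n = 2) and 35.2 ± 13.2 TPM (SD, n = 3), the log2 fold change being 0.52 ± 0.34 (SE, limma, adjusted p = 0.506) with an interval from -0.32 to 1.36. With the identifier series as a term the value was -0.19. Wnt7b was above Wnt7a in every library.

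Without 8 h replicate 14, time and identifier series divide the remaining libraries alike, and what differs cannot be assigned to either. In that fit Wnt7a had a log2 fold change of 0.87 (limma, adjusted p = 0.00918, against 0.00918 to 0.830 over its alternatives) and Wnt7b one of -0.55 (limma, adjusted p = 0.0224, against 0.0224 to 0.796). Both passed the limit on the adjusted p and neither the limit on fold change. Small p-values were common in that fit. Of all 13901 genes tested in it, 5200 had an unadjusted p under 0.05 (limma) and 573 were called, against 6 called with all libraries. The other 7 tested members had adjusted p-values between 0.0653 and 0.315 there.

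**Figure D2:**
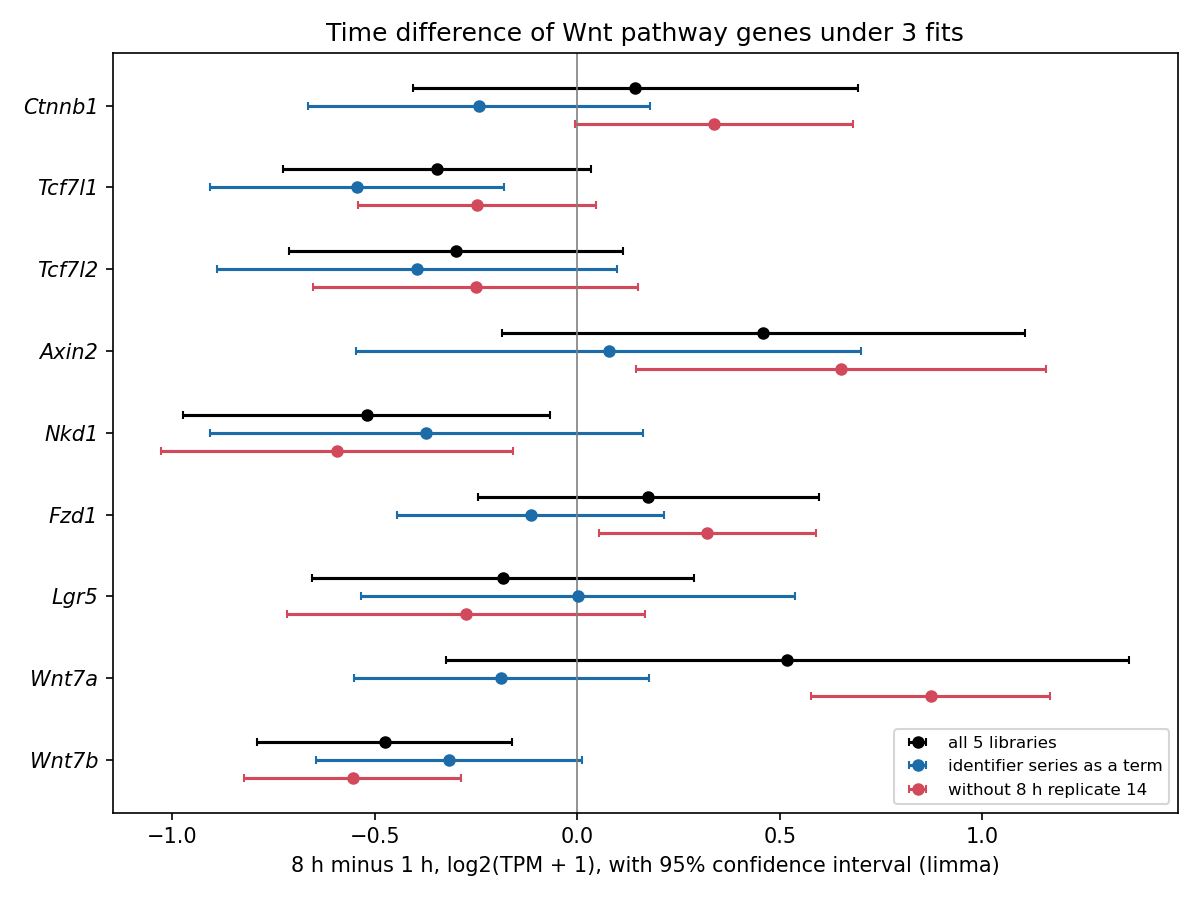
Log2 difference between 8 h and 1 h on the log2(TPM + 1) scale (horizontal axis) for the 9 tested genes, with 95% confidence intervals from limma, for all 5 libraries, for the fit with identifier series as a term and for the fit without 8 h replicate 14. The estimates of Tcf7l1, Tcf7l2, Nkd1 and Wnt7b are below 0 in all 3 fits, and that of Axin2 is above 0 in all 3. Several of the intervals of these genes include 0. Wnt7a lies at 0.52, -0.19 and 0.87. The fit with the series as a term sets 8 h replicate 14 alone against the 1 h libraries.

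The fit with the series as a term also gave the difference between 8 h replicates 13 and 15 and 8 h replicate 14, at 1 time point. This comparison was added after the values had been seen, and it rests on 1 library of series 1 at 8 h, which is assumed to vary like the others. Wnt7a was the 1 member called among 9, with 2.14 times the TPM of 8 h replicate 14 (log2 difference 1.06 ± 0.15, SE, limma, adjusted p = 0.0154), where 3.33% of all genes were called as higher and 0.692% as lower. The call did not hold without 8 h replicate 13 (log2 difference 1.04, limma, adjusted p = 0.0853) or without 8 h replicate 15 (1.08, limma, adjusted p = 0.0845), and with median-ratio scaling the difference was 0.94, below the limit on fold change. Over all its alternatives the adjusted p ranged from 0.00588 to 0.0853.

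Of the other members, Ctnnb1 differed between the series by 0.58 ± 0.17 (SE, limma, adjusted p = 0.0978), Axin2 by 0.57 ± 0.25 (SE, limma, adjusted p = 0.221) and Fzd1 by 0.44 ± 0.13 (SE, limma, adjusted p = 0.107). Tcf7l1 (0.30), Tcf7l2 (0.14), Nkd1 (-0.22), Wnt7b (-0.24) and Lgr5 (-0.28) were nearer to 0. The median of all genes in this comparison was 0.11. Genes of other lists differed as well. Of 5 proliferation genes, all 5 were higher in series 2 and 2 were called, Top2a (1.24) and Ccnb1 (1.93), and of 5 astrocyte genes 4 were higher and 2 were called, Gfap (3.68) and Aqp4 (2.20). In the opposite direction, 2 of 6 neuroblast and neuron genes were called as lower, Map2 (-1.13) and Syt1 (-1.31), and 1 of 6 tested genes of the oligodendrocyte lineage, Mbp (-1.48). Of all genes tested, 64.3% were higher in series 2. The summed level of the astrocyte genes was 966.2 and 964.3 TPM in series 2 and 563.8 to 683.4 TPM in series 1. Most of that sum was Aldh1l1 (454.9 to 724.3 TPM over all libraries), which was not called. The part of the genes of these lists in the values of Wnt7a was not tested.

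The members were set beside a wider list of 99 Wnt pathway genes that includes them, of which 69 entered the test. With limma, 0 of the 69 were called between 8 h and 1 h, against 0.0433% of all genes. At an unadjusted p under 0.05 there were 2 higher and 4 lower genes of the 69, against 9.52% and 2.82% of all genes. Higher at 8 h were 44 and lower 25 (63.8% higher, against 65.9% of all genes), and 34 of the 69 were above the median of all genes. Their median log2 fold change was 0.079, against 0.10 for all genes. Besides Wnt7b and Nkd1, the genes with the smallest p were Lgr6, already given, Gsk3b, a kinase of the destruction complex (-0.27), and the common targets Ccnd1 (0.52) and Myc (0.26), none of which passed adjustment. Ccnd1, the cyclin D1 gene, had 1191 and 1189 TPM in the 1 h libraries and 1915, 1387 and 1862 TPM at 8 h, without overlap, and its log2 fold change was 0.22 with the identifier series as a term. Myc had 66.2 and 76.1 TPM in the 1 h libraries and 84.4 to 86.2 TPM at 8 h.

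By role, Wnt7b, Wnt7a and Wnt5a (17.5 to 25.4 TPM) held most of the transcripts of the 19 ligand genes, of which 5 had a mean of at least 1 TPM and 7 were listed at 0 in all libraries. Both genes of ligand secretion were expressed, with means of 66.1 TPM for Wls, the Wnt carrier, and 13.1 TPM for Porcn, which acylates Wnts. Of 17 receptor and co-receptor genes, 16 were tested, and Ryk (94.7 TPM) and Fzd3 (65.0 TPM) were above Fzd1 on average. In the R-spondin arm, Znrf3, a ligase that removes Frizzled receptors, had a mean of 21.0 TPM and Lgr4 one of 7.66 TPM, and the 4 R-spondin genes were all under 1 TPM.

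All 15 genes of Dishevelled and the destruction complex were tested, led by Csnk1a1 (205.1 TPM) and Fbxw11 (140.4 TPM), and Axin1 (27.5 to 34.5 TPM) was above Axin2 in every library. Of 14 nuclear genes, 13 were tested, and Pygo2, a co-activator of β-catenin, followed Ctnnb1 with 45.1 TPM. Among 15 antagonists, 7 were tested, led by Kremen1 (21.3 TPM) and Sfrp1 (16.4 TPM). Among 8 feedback genes and common targets, 6 were tested, led by Ccnd1 (1509 TPM) and Myc (79.6 TPM).

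Between the identifier series, 53 of the 69 genes were higher in 8 h replicates 13 and 15 and 16 lower, with a median of 0.26 against 0.11 for all genes, of which 64.3% were higher. A total of 4 of the 69 were called as higher and 0 as lower, against 3.33% and 0.692% of all genes. Besides Wnt7a these were Dkk3 (log2 difference 2.71) and Sfrp2 (1.49), listed here under antagonists, and the receptor gene Fzd10 (1.36). Dkk3 had 9.003 and 10.3 TPM in series 2 and 0.625 TPM in 8 h replicate 14, and 0.910 and 1.86 TPM at 1 h. Sfrp2 had 15.2 and 13.4 TPM in those replicates against 4.45 TPM, and Fzd10 had 30.2 and 26.7 TPM against 10.4 TPM. For all of these genes both 1 h libraries were below both series 2 libraries.

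**Figure D3:**
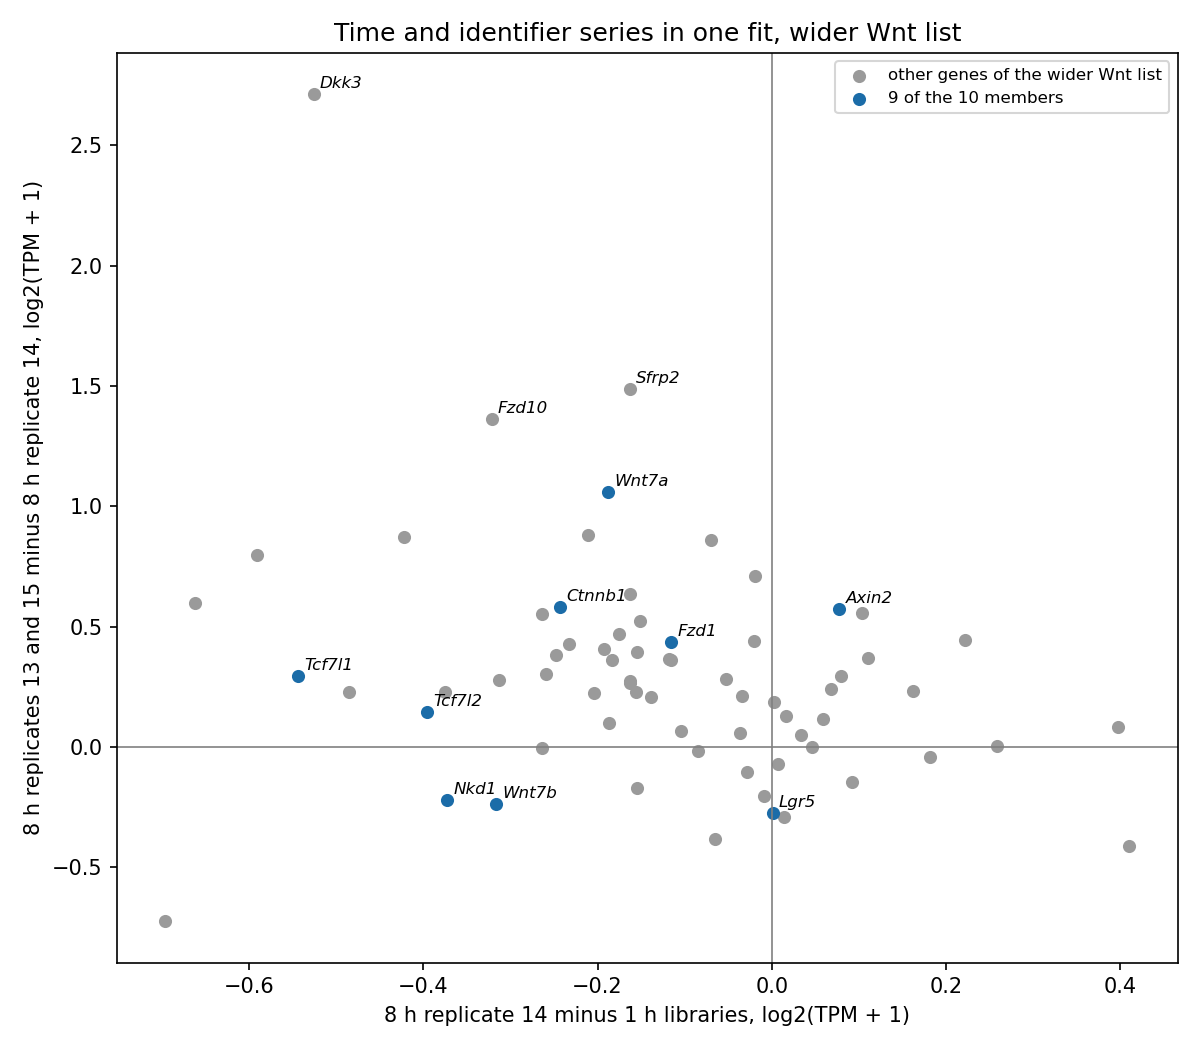
The 69 tested genes of the wider Wnt list, with the log2 difference between 8 h replicate 14 and the 1 h libraries (horizontal axis) against that between 8 h replicates 13 and 15 and 8 h replicate 14 (vertical axis), both on the log2(TPM + 1) scale and from 1 limma fit, so that both axes share 8 h replicate 14. The 10 members are in blue except Lef1, which was not tested, and Wnt7a, Dkk3, Sfrp2 and Fzd10, all above 1 on the vertical axis, are the genes called there.

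A table of read counts gave a further view of 7 members. Tcf7l1, Lef1 and Fzd1 are not in the table as used here. Its columns were taken by their names, but the 8 h columns did not follow the TPM tables of the same name. Over 7425 genes, and after removing the offset of each gene between the tables at 1 h, the column named 8 h replicate 13 was within 0.1 (log2) of the TPM table of 8 h replicate 14 for 77.8% of genes and of its own for 24.5%. That named 8 h replicate 15 matched the table of 8 h replicate 13 for 78.0%. Under the name 8 h replicate 14, the best value was only 38.7%, and it was with a 1 h table, that of 1 h replicate 2. With the 8 h tables this column gave 20.6% to 24.5%. It was kept in the 8 h group by its name alone. Values below therefore belong to columns so named, and identifier series cannot be read from them.

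With edgeR, 0 of the 7 members were called at 8 h against 1 h, and 0% of the 7590 genes tested were called (0 genes, 199 with an unadjusted p under 0.05; DESeq2 called 0, with 227). Ctnnb1 varied little, with 1648 and 1626 CPM (counts scaled to the column total) at 1 h and 1626, 1751 and 1766 CPM in the columns named 8 h replicates 13, 14 and 15. The highest was 1.09 times the lowest, against 1.65 times in TPM. edgeR gave a log2 fold change of 0.040 ± 0.093 (SE, adjusted p = 0.978). The 1 h libraries, whose columns and tables matched best under their own names (88.5% of genes, in part by construction since the offset is theirs), had a ratio of replicate 2 to replicate 1 of 0.986 in CPM and 1.24 in TPM, so the spread of Ctnnb1 depended on the table. The cause was not tested.

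Axin2 had 22.02 and 28.9 CPM at 1 h and 29.7, 43.0 and 36.6 CPM at 8 h. All 8 h columns were above both 1 h columns, as for 11.6% of all genes in this table. The difference was 0.49 ± 0.20 on the log2 scale (SE, edgeR, adjusted p = 0.966). Leaving out each library in turn moved it between 0.30 and 0.70, and the TPM value of 0.46 between 0.19 and 0.73. Nkd1 had 37.4 and 51.6 CPM at 1 h and 32.9, 33.9 and 28.1 CPM at 8 h, all lower, as for 7.05% of all genes. The change of -0.52 ± 0.18 on the log2 scale (SE, edgeR, adjusted p = 0.966) was the same to 2 decimals as from TPM. Both tables include the same 1 h libraries, and the columns named 8 h replicates 13 and 15 matched TPM tables of 8 h. The tables are therefore not independent.

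Wnt7b had 374.2 and 378.3 CPM at 1 h and 302.5, 383.5 and 211.4 CPM at 8 h. Here the column named 8 h replicate 14 was the highest, so the groups overlapped (log2 fold change -0.36 ± 0.23, SE, edgeR, adjusted p = 0.966). Without that column the Wnt7b value was -0.56, and over all columns left out it ran from -0.56 to -0.16. Wnt7a had 47.1 and 58.3 CPM at 1 h and 45.1, 54.2 and 89.2 CPM at 8 h, with 1 high column, that named 8 h replicate 15 (0.23 ± 0.30, SE, edgeR, adjusted p = 0.966). Tcf7l2, at 29.2 to 45.0 CPM, and Lgr5, at 3.52 to 6.94 CPM and 51 to 125 reads per column, overlapped as well, with log2 fold changes of -0.12 and -0.41.

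**Figure D4:**
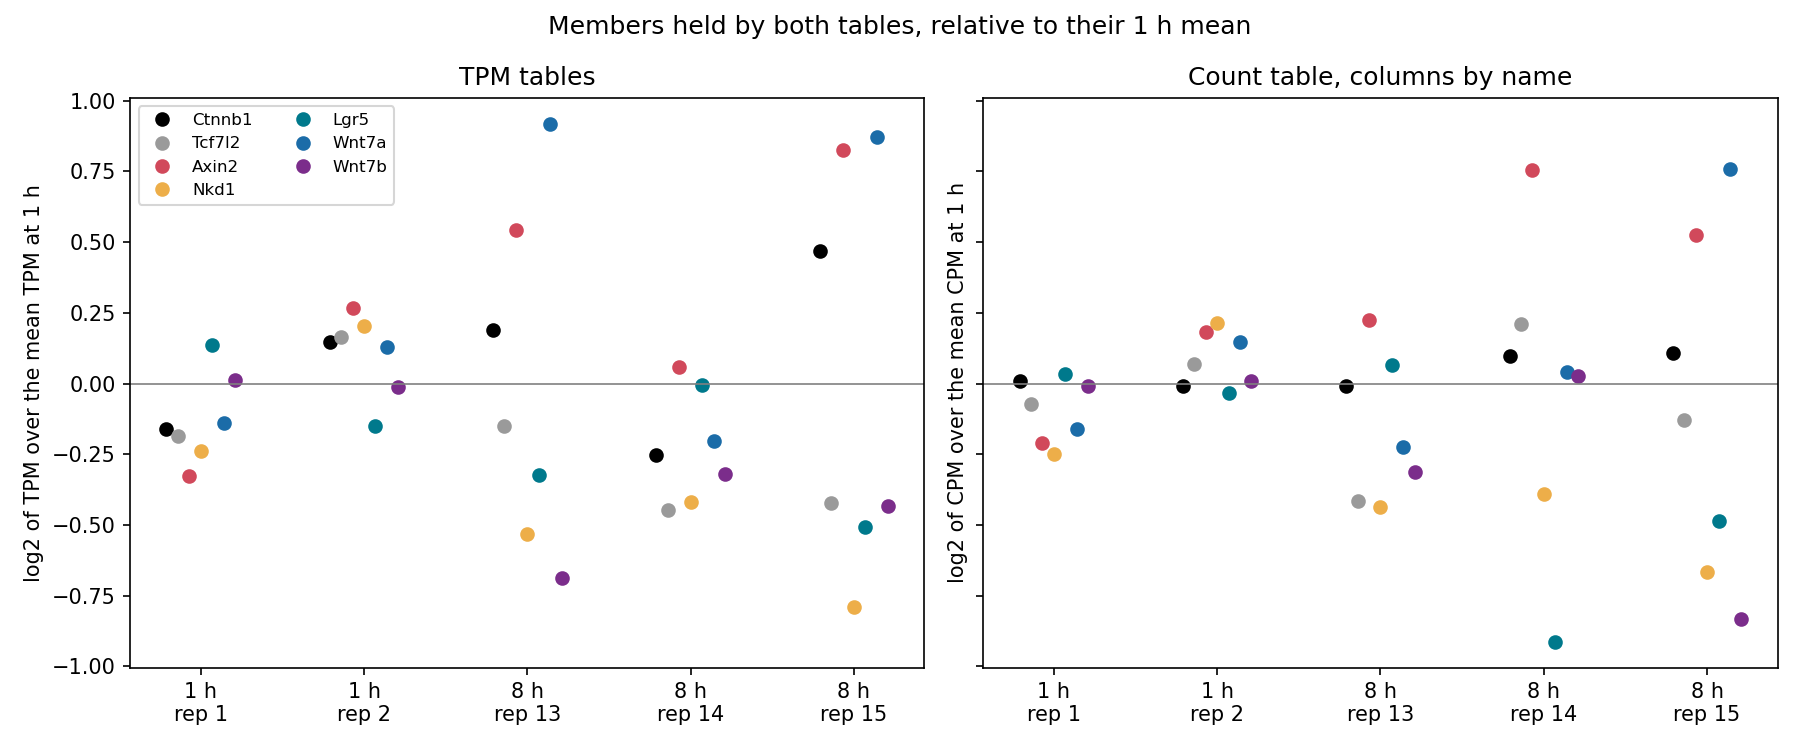
Log2 of each level over its 1 h mean (vertical axis) for the 7 members held by both kinds of table, in the 5 TPM tables (left) and in the 5 count columns under their names (right). Ctnnb1 stays within a 1.09-fold range in the count columns and covers a 1.65-fold range in TPM, and Nkd1 is below both 1 h values at 8 h in both panels.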

How the data were processed

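RNA was measured in 5 stranded, poly-A selected libraries, grouped by the labels into 1 h (n = 2) and 8 h (n = 3). The authors converted base calls with bcl2fastq 2.19.1.403, and ran the nf-core/rnaseq workflow, with STAR against GRCm38 and featureCounts for reads per gene. The deposited count table gives raw reads for 7599 genes here, with 13988166 to 18572154 reads per column, which is part of each library. The authors also deposited 1 table per library with TPM, FPKM and mean per-base coverage. No source used here names the tool behind these. Deposited coverage and FPKM served only for their ratio (5.57 to 7.18), which is proportional to depth. Whether counting used strand is not stated either. The 15 genes that overlap members had a mean of at most 1.77 TPM.

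TPM was summed per gene identifier, and where a symbol of the wider list had more than 1 identifier the more abundant was used. Genes averaging at least 1 TPM were tested as log2(TPM + 1) with limma 3.58.1 (intensity trend, R 4.3.3) on all 5 libraries. Counts were tested with edgeR 4.0.16 (quasi-likelihood, TMM, filterByExpr), with DESeq2 1.42.0 as an alternative. The SE given with edgeR is the absolute log2 fold change over the square root of the F value of its test. Calls needed a Benjamini-Hochberg adjusted p of at most 0.05 over all genes and an absolute log2 fold change above 1, the limits of the study. Both fits were also run on simulated data with planted log2 changes of 2 in size and no identifier series. This does not test changes as small as those of the members. CPM are counts over the column total. Alternatives were pseudocount 0.1, no filter, median-ratio scaling, the identifier series as a term, series 1 alone, RLE size factors and each library left out in turn. The members, lists and tests were chosen with earlier results of these data known. Named genes are the members, the 2 most abundant genes of each role in the wider list, genes called, and per direction at most 4 genes with the smallest p under 0.05. For the 3 members with the widest range, they are also the 3 genes of mean TPM at least 5 with the nearest profile. Other genes named (Tcf7, Nkd2, Lgr4 beside Lgr5, Wnt5a, Axin1 and the genes called between identifier series) were chosen after their values were seen.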

Additional observations from a re-analysis of the deposited data

How the results depend on the processing

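The count of genes called between 8 h and 1 h in the TPM tables, 6 with all libraries, was 0 with no filter on low values (2371 genes with an unadjusted p under 0.05) and 19 with the identifier series as a term. Leaving out each library in turn gave 0 to 573 genes. The highest count was without 8 h replicate 14. Only 1 gene was called without 8 h replicate 13, and 0 without 1 h replicate 1, 1 h replicate 2 or 8 h replicate 15 (767, 668 and 850 genes at an unadjusted p under 0.05). The count of genes called between the identifier series, 558, ranged from 82 to 642 and was 141 without 8 h replicate 13 and 82 without 8 h replicate 15. Median-ratio scaling changed its split from 462 higher and 96 lower to 316 higher and 119 lower. With the identifier series as a term, and equally with the series 1 libraries alone, Ctnnb1 turned to -0.24, Lgr5 to 0.00074, Fzd1 to -0.12 and Wnt7a to -0.19. Leaving out each library moved Ctnnb1 between -0.022 and 0.34, negative at -0.0100 without 1 h replicate 1 and at -0.022 without 8 h replicate 15. In the count table, Tcf7l2 turned to 0.17 with a series term set by column name, which cannot be read as the series since these columns do not match the TPM tables, and to 0.019 without the column named 8 h replicate 13 (-0.28 to 0.019 over columns left out), and Wnt7a to -0.11 without the column named 8 h replicate 15 (-0.11 to 0.42). The causes were not tested. The other values kept their direction, and none gained or lost a call, except the Wnt7a difference between the series (0.94 with median-ratio scaling, 1.04 and 1.08 without 8 h replicates 13 and 15). The adjusted p alone passed 0.05, with the fold change under its limit, for Wnt7a and Wnt7b without 8 h replicate 14 and for the Ctnnb1 difference between the series (0.58) without 1 h replicate 1 (limma, adjusted p = 0.0421) or 1 h replicate 2 (0.0427), against 0.0421 to 0.265 over its alternatives. No paired analysis was possible because the groups share no replicate numbers. With 2 and 3 libraries, even the narrowest 95% interval of a member in the TPM test, that of Wnt7b, ran from -0.79 to -0.16, and Lgr5 rested on 51 to 125 reads per column.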

Other observations

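The genes whose profiles over the 5 libraries lay nearest to those of the 3 members with the widest range were found among 10274 genes with a mean of at least 5 TPM, as the root mean square difference of log2(TPM + 1) after centring. Nearest to Wnt7a were Espl1, the separase gene (difference 0.029, with 10.3 and 12.2 TPM in the 1 h libraries and 22.5, 9.45 and 21.1 TPM at 8 h, replicates 13, 14 and 15), the importin gene Kpna2 (0.053) and the fatty acid synthase gene Fasn (0.053). For Axin2 they were Wdr62 (0.050), Rhoj (0.050) and the pseudogene Slc39a1-ps (0.070). For Nkd1 they were Id3 (0.067), Snhg8 (0.091) and Asl (0.093). Id3, which encodes an inhibitor of helix-loop-helix factors, had 175.3 and 204.9 TPM in the 1 h libraries and 138.7, 140.0 and 113.6 TPM at 8 h. These likenesses rest on 5 libraries of unequal depth, 3 of series 1 and 2 of series 2, and are descriptions without a test.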
